A study of Gallus gallus with 8 samples.

Results

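Regions of chick retinal chromatin that carried an Oc1 peak at both digestion times but an Otx2 peak at only 1 of them are described here. Peaks of 4 lists (Otx2 and Oc1, each at 25 and 30 min) that overlapped by at least 1 base were joined into 22265 regions, with the mitochondrial chromosome left out. Of the 6036 regions with a peak in both Oc1 lists, 1338 (22.2%, Wilson 95% interval 21.1 to 23.2%) had a peak in exactly 1 Otx2 list. These members were thus chosen by peak calls, and their Otx2 detection is a description and not a finding. The Otx2 peak came from the 25 min list in 864 of the members and from the 30 min list in 474. The Otx2 lists differ in length, with 11495 peaks at 25 min and 9044 at 30 min. With the lists cut to the shortest length, the members numbered 589 at 25 min and 551 at 30 min. Among the other regions with both Oc1 lists, 2400 had no Otx2 peak and 2298 had a peak in both Otx2 lists.

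The libraries come from wild-type chick retina at embryonic stage E5, dissociated before the assay. Each was treated with an antibody against Otx2 or Oc1, and digestion was stopped at 25 or 30 min, with 1 library for each antibody and time. The 4 libraries of the series with H3K27me3 antibody or IgG were not analysed here. No replicate exists, so no test between conditions could be made. Wilson intervals and intervals of medians below carry counting error over regions only. The retina at this stage is a mixture of cell types, and a peak found in few cells cannot be told apart from weak occupancy in many.

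Otx2 is a homeodomain transcription factor of photoreceptor and bipolar cell development. Oc1 (Onecut1) belongs to the Onecut family, whose members combine a cut domain with a homeodomain, and is known from horizontal cell, ganglion cell and early cone development. Both factors are found together in retinal progenitors that give rise to cones and horizontal cells. In CUT&RUN an antibody tethers a nuclease to its target, and the fragments released around the bound site are sequenced. Fold enrichment is the pile-up of reads at the summit over the local background, as the authors' peak caller gave it. Its values are reproduced with a pseudocount of 1 added to both. Ranks are percentiles within 1 list, from 0 for the weakest peak to 100 for the strongest. They are used because lists differ in length and, going by their narrowest peaks, in read extension.

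Otx2 peaks in the members mostly ranked below the middle of their own lists, and below those of regions with both Otx2 lists. Their median fold was 5.37 at 25 min (quartiles 4.64 and 6.58) and 5.48 at 30 min (4.76 and 6.67). Their median percentile by −log10 q was 43.3 at 25 min and 48.3 at 30 min (interval 36.4 to 48.3). By fold it was 43.1 at 25 min and 33.3 at 30 min, so the order of the times depends on the measure. In regions with both Otx2 lists, the medians of the Otx2 fold were 7.60 at 25 min and 7.09 at 30 min. Their percentiles by −log10 q were 78.0 and 67.1. The lower Otx2 strength of the members goes with the choice by detection at only 1 time, so nothing was tested on it. The lowest −log10 q of a member's Otx2 peak was 1.42 at 25 min and 1.38 at 30 min, close to the smallest values of the full lists, 1.31 and 1.38.

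The read numbers behind these peaks were small. As counted in calling, that is scaled and cut to whole reads, the Otx2 peak had at most 5 summit reads in 336 of the 864 members at 25 min (38.9%, 35.7 to 42.2%). At 30 min this held for 325 of the 474 members (68.6%, 64.3 to 72.6%). Otx2 pile-ups were scaled by 0.845 at 30 min and by 1 at 25 min, so the limit of 5 stands for more reads at 30 min. The shares are therefore not compared between the times. Before scaling, the members' Otx2 peaks had a median of 6 reads at 25 min and 7 at 30 min. In regions with both Otx2 lists the shares were 8.70% and 28.7%. The members' Otx2 peaks thus rested on fewer reads at both times than those of regions with both Otx2 lists. Peak calls depend on reads and the members were chosen by a missing call, so nothing is read from this difference. At this depth, the lack of an Otx2 peak at the other time does not show that Otx2 was absent there.

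Oc1 peaks in the members ranked higher within their lists than the Otx2 peaks. This order is favoured by requiring Oc1 at both times and Otx2 at only 1, so nothing is read from it. In members with Otx2 at 25 min, the median Oc1 fold was 6.89 at 25 min and 6.58 at 30 min, at percentiles of 68.0 and 64.0 by −log10 q. In members with Otx2 at 30 min, it was 6.60 at 25 min and 7.52 at 30 min, at percentiles of 61.1 and 72.8. Each kind of member thus had its higher median Oc1 fold at the time at which Otx2 was also found. The geometric mean of both Oc1 folds had a median of 6.78 over all members (95% interval 6.64 to 6.94). It was 6.09 (5.999 to 6.16) where no Otx2 list had a peak and 7.77 (7.61 to 7.91) where both did. The members lay between these classes, with quartiles that overlap both.

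**Figure D1:**
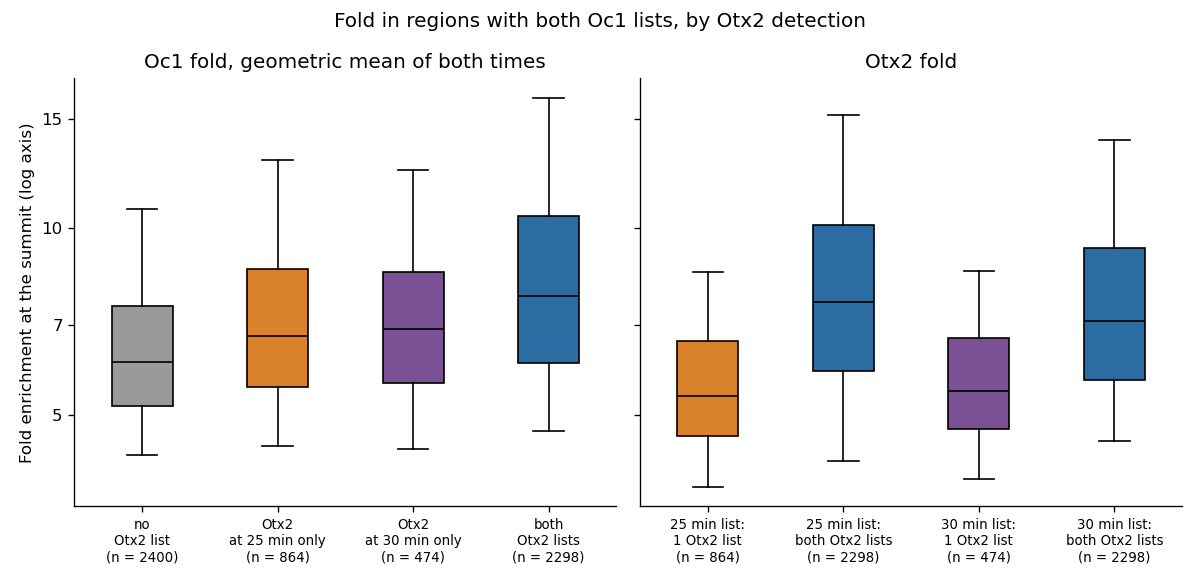
Fold enrichment at the summit (log axis) in regions with both Oc1 lists, for Oc1 on the left and Otx2 on the right. Boxes give quartiles and medians and whiskers the 5th and 95th percentiles. Median Oc1 folds are 6.09 without Otx2 and 7.77 with both Otx2 lists, and median Otx2 folds of the members are 5.37 and 5.48.

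Otx2 fold was set against the Oc1 fold of the same region. Both are the authors' values from different libraries, whose depths are not listed and whose read extensions seem to differ. The ratio thus describes these lists and not amounts of bound protein. Within members, the median log2 ratio of the Otx2 fold to the Oc1 fold of the same time was -0.41 at 25 min (quartiles -0.78 and 0.005, 95% interval of the median -0.45 to -0.35). At 30 min it was -0.39 (quartiles -0.82 and 0.09, interval -0.46 to -0.31). In regions with both Otx2 lists it was -0.02 at 25 min and -0.12 at 30 min. Otx2 had the lower fold of the pair in 626 of 864 members at 25 min (72.5%) and in 346 of 474 at 30 min (73.0%). This held for 50.5% and 57.5% of regions with both Otx2 lists. When each peak had to cover 50% of the other, the median ratio at 30 min was 0.05, in a set of members that only partly overlaps the one described.

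The Otx2 fold was below both Oc1 folds in 473 members with Otx2 at 25 min (54.7%, 51.4 to 58.0%). Over all regions with both Oc1 lists and an Otx2 peak at 25 min, the share was 44.0%. At 30 min the Otx2 fold was below both Oc1 folds in 262 members (55.3%, 50.8 to 59.7%), against 45.2% over all such regions. These shares follow in part from the choice of Otx2 peaks missed at the other time, so nothing is read from their distance to the shares over all regions. Over members of both times together the share was 54.9%, and it was 41.0% (38.4 to 43.7%) when each peak had to cover 50% of the other. In the other direction, the Otx2 fold was above both Oc1 folds in 156 members at 25 min (18.1%) and in 79 at 30 min (16.7%). These shares were 35.6% and 32.0% in regions with both Otx2 lists. It was more than 1.5 times above the Oc1 fold of the same time in 44 members at 25 min (5.09%) and 17 at 30 min (3.59%), against 21.1% and 15.6% of regions with both Otx2 lists. Members where Otx2 had the higher fold thus existed but made up a smaller share, which also follows in part from the choice of members.

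**Figure D2:**
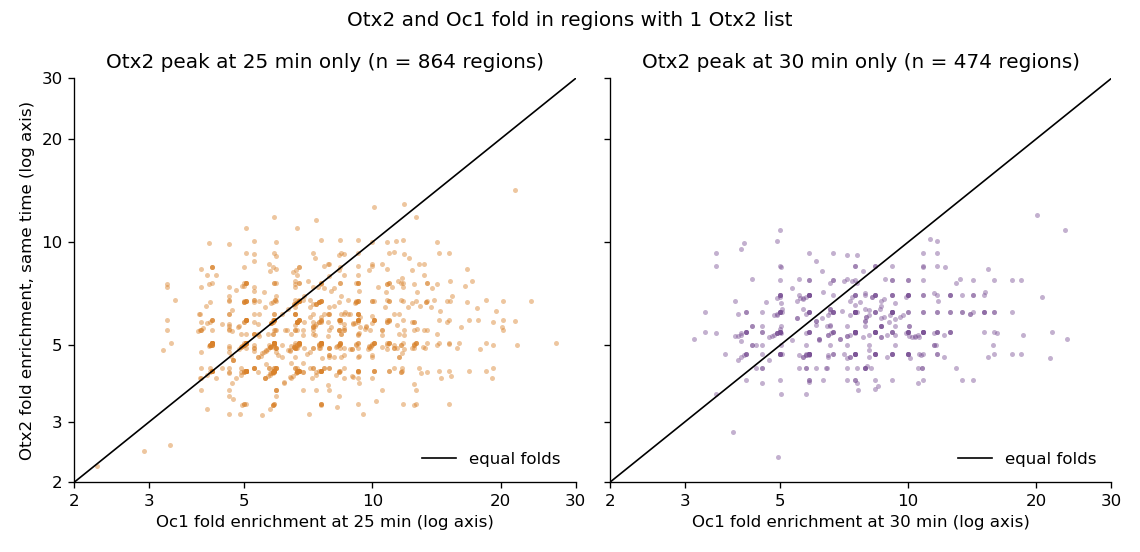
Otx2 fold against Oc1 fold of the same digestion time (both log axes) in the 864 members with Otx2 at 25 min (left) and the 474 with Otx2 at 30 min (right). Each point is a region and the line marks equal folds. Otx2 folds reach 14.2 and 11.96, Oc1 folds reach 26.9 and 23.6, and 72.5% and 73.0% of points lie below the line.

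The strongest Oc1 regions among the members had Otx2 peaks of ordinary size. Members were ordered by the smaller −log10 q of their Oc1 peaks. The first of those with Otx2 at 25 min lay on chromosome 4, from 11886373 to 11886952 (build galGal5). Its Oc1 fold was 26.9 with 31 summit reads at 25 min and 20.9 with 24 reads at 30 min. Its Otx2 peak at 25 min had a fold of 5.07 from 5 reads, 5.32 times lower than the Oc1 fold of that time, with summits 45 bases apart. The background at all 3 peaks was at the genome-wide level, and Otx2 had no peak at 30 min.

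Another such region lay on chromosome 2, from 119827508 to 119828234, with Oc1 folds of 19.5 and 17.7 and an Otx2 fold of 6.28 at 25 min. There the Otx2 and Oc1 summits were 225 bases apart. The region on chromosome 22 from 1473963 to 1474430 had Oc1 folds of 20.2 and 18.4 and an Otx2 fold of 5.67 from 6 reads. Among members with Otx2 at 30 min, the strongest in Oc1 lay on chromosome 10, from 7402337 to 7402867. Its Oc1 folds were 19.0 and 23.6 with 22 and 29 reads, and its Otx2 fold was 5.23 from 6 reads. Also on chromosome 10, from 18990597 to 18991370, the Oc1 folds were 19.2 and 17.5 and the Otx2 fold was 7.77 from 9 reads. On chromosome 3, from 72151990 to 72152554, Oc1 folds of 16.4 and 18.6 stood beside an Otx2 fold of 5.38, with summits 3 bases apart. In all 6 of these regions both Oc1 folds were more than 2 times the Otx2 fold.

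The lowest ratios of Otx2 to Oc1 were sought among members whose 3 peaks all had a −log10 q of at least 5. These numbered 218 of the 864 members with Otx2 at 25 min (25.2%) and 162 of the 474 with Otx2 at 30 min (34.2%). At 25 min the lowest was on chromosome 11, from 8841210 to 8842009, where the Oc1 fold of 21.7 was 3.67 times the Otx2 fold of 5.90. The chromosome 22 region above followed at 3.56 times. Next came a region on chromosome 23, from 3242766 to 3243257, where an Oc1 fold of 23.6 stood against an Otx2 fold of 6.76. At 30 min the lowest was on chromosome 12, from 7868045 to 7868498, with an Oc1 fold of 21.7 against an Otx2 fold of 5.48. Its Oc1 fold at 25 min was only 7.88, over a background raised 5.49 times above the genome-wide one. The chromosome 3 region above followed, and then chromosome 13, from 10455713 to 10456139, with an Oc1 fold of 16.2 against an Otx2 fold of 5.43.

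The highest ratios were sought in the same set, with all 3 peaks at a −log10 q of at least 5. In these members the Otx2 fold exceeded the Oc1 fold. At 25 min the highest ratio was on chromosome 1, from 22696008 to 22696645, with an Otx2 fold of 10.04 against an Oc1 fold of 5.94, a ratio of 1.69. The next were on chromosome 3, from 54001667 to 54001917 (8.23 against 5.74), and chromosome 2, from 81287526 to 81287928 (8.36 against 5.94). At 30 min the ratios reached 1.23 on chromosome 2, from 107656906 to 107657336, with an Otx2 fold of 6.88 against an Oc1 fold of 5.58. Those on chromosome 10, from 5620274 to 5620775, and chromosome 8, from 11083383 to 11083753, both had a ratio of 1.21. The chromosome 10 region had 12 Otx2 and 14 Oc1 reads, over backgrounds of 1.99 and 4.96 times the genome-wide one. The chromosome 1 and chromosome 2 regions at 25 min had 11 and 9 Otx2 reads, against 8 Oc1 reads in each. Their backgrounds were 1.07 times at the Otx2 peak and 2.75 times at the Oc1 peak. The remaining regions had 8 or 9 Otx2 reads against 6 Oc1 reads, over similar backgrounds. Over all members, without this limit on q, the log2 ratios ran from -2.41 to 1.27 at 25 min. At 30 min they ran from -2.23 to 1.39. The limit on q also asks for strong Oc1 peaks, which cuts the high end of the ratios. Since members were further required to have Oc1 at both times and to lack Otx2 at 1, nothing is read from the wider range on the side of Oc1.

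Strong Otx2 peaks that were missed at the other time were few. An Otx2 peak in the top 10% of its list by −log10 q was found in 17 members at 25 min (1.97%, 1.23 to 3.13%) and in 6 at 30 min (1.27%, 0.581 to 2.73%). In regions with both Otx2 lists these shares were 27.2% and 20.2%. This difference goes with the choice of members by a missing Otx2 peak, so nothing is read from it. The strongest Otx2 peak of the members lay on chromosome 5, in a region from 56008480 to 56009046, with a fold of 14.2 from 16 reads at 25 min. Its summit coincided with the Oc1 summit of that time, at a distance of 0 bases. Oc1 had a fold of 21.7 from 25 reads at 25 min and of 7.44 from 21 reads at 30 min. The background at the Oc1 peak was 1.07 times the genome-wide one at 25 min and 9.92 times at 30 min. The Oc1 reads of this region were thus similar at both times, and its Oc1 fold fell where the background was high.

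A second strong region, on chromosome 1 from 40356830 to 40357391, had an Otx2 fold of 12.9 from 20 reads at 25 min. Its Oc1 folds were 11.9 from 17 reads at 25 min and 3.38 from 9 reads at 30 min. The background at the Oc1 peak was raised at both times, to 2.75 and 9.92 times the genome-wide one. Here both the Oc1 reads and the Oc1 fold were lower at 30 min. On chromosome 3, from 31302467 to 31303177, an Otx2 fold of 12.7 stood beside Oc1 folds of 10.1 and 10.1, over backgrounds of 1.00 and 2.98 times. Among members with Otx2 at 30 min, the strongest Otx2 peak had a fold of 11.96 from 16 reads, in a region on chromosome 11 from 9052830 to 9053376. Its Oc1 folds were 11.3 at 25 min and 20.1 at 30 min, over backgrounds of 3.20 and 1.98 times the genome-wide one. On chromosome 5, from 38704882 to 38705367, the Otx2 fold was 10.8, and Oc1 had 11.9 and 23.4 over backgrounds of 2.75 and 1.00 times. On chromosome 17, from 9145763 to 9146219, an equal Otx2 fold of 10.8 exceeded Oc1 folds of 5.28 and 5.01, again with the background raised 2.75 times at 25 min. In each of these 6 regions the background at the Oc1 peak was higher, relative to the genome-wide one, at the time without an Otx2 peak.

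The background was therefore described over all members, from the Oc1 peaks, which exist at both times. A background of at least 2 times the genome-wide one was called raised, a level set after the values above were seen. At 30 min the upper quartile of regions without Otx2 was 1.98 times, just under this level. The shares at 30 min thus depend on where the level was set. Among all regions with both Oc1 lists, it was raised in 41.0% at 25 min and in 23.7% at 30 min. In members with Otx2 at 25 min, it was raised in 29.9% at 25 min (26.9 to 33.0%) and in 35.8% at 30 min (32.6 to 39.0%). In members with Otx2 at 30 min, it was raised in 59.9% at 25 min (55.4 to 64.2%) and in 13.1% at 30 min (10.3 to 16.4%). Relative to all regions with both Oc1 lists, the raised share was thus lower at the time with an Otx2 peak and higher at the time without one, in both kinds of member. Regions without Otx2 had 37.5% and 18.9%, and regions with both Otx2 lists 44.9% and 26.3%.

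**Figure D3:**
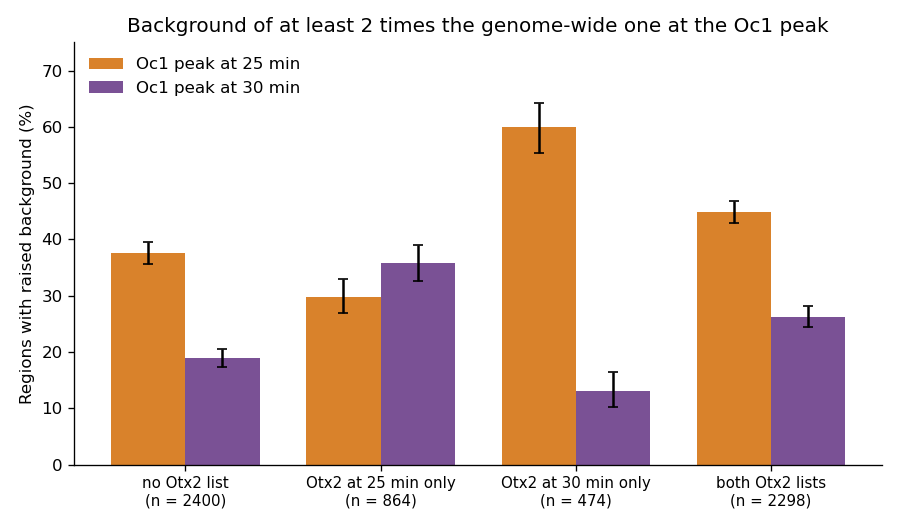
Share of regions whose background at the Oc1 peak was at least 2 times the genome-wide one (bars from 0, in percent, with Wilson 95% intervals), at 25 and 30 min, by Otx2 detection. Members with Otx2 at 30 min stand at 59.9% and 13.1%, and members with Otx2 at 25 min at 29.9% and 35.8%.

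Region by region, the background relative to the genome-wide one was higher at the time without Otx2 in 448 of 864 members with Otx2 at 25 min (51.9%) and lower in 299 (34.6%). In members with Otx2 at 30 min it was higher in 331 of 474 (69.8%) and lower in 103 (21.7%). Backgrounds within 0.5% of each other make up the rest. These shares are not given for the other classes. There the background was more often raised at 25 min alone than at 30 min alone. The shares were 27.9% and 9.25% without Otx2, and 29.8% and 11.2% with both Otx2 lists. In members with Otx2 at 25 min the counts were 130 and 181 of 864. In members with Otx2 at 30 min they were 238 and 16 of 474. How much of the 69.8% goes with the lean of the other classes to 25 min was not tested. Among the members with an Otx2 peak in the top 10% of its list, the background was raised at the time without Otx2 in 13 of 17 and 5 of 6. These counts include the 6 regions above, after which the level was set, and so partly restate them. At the time with Otx2 it was raised in 4 of 17 and 0 of 6. Among those 6, the chromosome 11 region above stood at 1.98 times, just under the level. The commonest raised level at Oc1 peaks was 0.515 reads at 25 min and 0.978 at 30 min. Of backgrounds at or above it, 92.6% and 98.5% lay within 0.01 of whole multiples of that level. It stood at 2.75 and 4.96 times the genome-wide background, so the cut of 2 times does not mean the same at both times. In members with Otx2 at 30 min, the median and upper quartile at 25 min were both 2.75 times. A raised background there was thus often a single such level.

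Over all regions with both Oc1 lists, the share with an Otx2 peak was alike with and without raised background. An Otx2 peak at 25 min was found in 52.1% of those with raised background at 25 min and in 52.6% of the others. At 30 min the shares were 46.6% and 45.7%. The contrast in background between the times was seen in the members, which by their definition differ in Otx2 detection between times. In 425 of the 864 members with Otx2 at 25 min (49.2%) and in 174 of the 474 with Otx2 at 30 min (36.7%), the background was raised at neither time. This held for 53.2% of regions without Otx2 and 43.9% of those with both Otx2 lists. The members with Otx2 at 25 min lay between these classes, and those with Otx2 at 30 min below both. The part of the background in the partial detection of Otx2 was not tested.

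The Oc1 values followed the same order in fold and not in reads. From 25 to 30 min the Oc1 fold changed by a median log2 of -0.084 in members with Otx2 at 25 min (95% interval -0.15 to -0.04) and by 0.17 in members with Otx2 at 30 min (0.10 to 0.23). In regions with both Otx2 lists the value was 0.06. Oc1 fold was higher at 30 min in 41.4% of the former members and in 60.8% of the latter. Oc1 summit reads were higher at 30 min in 50.3% and 42.0%. The fold is divided by the local background plus a pseudocount of 1, so it changes by less than the multiples of background given above. The part of the background in these shifts was not tested.

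Otx2 detection rose with Oc1 strength, while partial detection changed little. The regions with both Oc1 lists were cut into 10 equal classes by the geometric mean of their Oc1 folds, from a median of 4.45 in the weakest class to 13.9 in the strongest. The share with both Otx2 lists was 23.3% in the weakest class and 68.2% in the strongest, and the share without Otx2 was 57.5% and 13.7%. Members made up 19.2% of the weakest class (16.3 to 22.5%), at most 25.5% in the seventh (22.2 to 29.2%) and 18.05% of the strongest (15.2 to 21.3%), beside 22.2% over all. Counted among regions with any Otx2 peak, however, the members' share was 45.1% in the weakest class and 20.9% in the strongest. This share was highest in the second class, at 48.2%. In every class, most regions with any Otx2 peak thus had it at both times, and most often so where Oc1 was strongest.

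**Figure D4:**
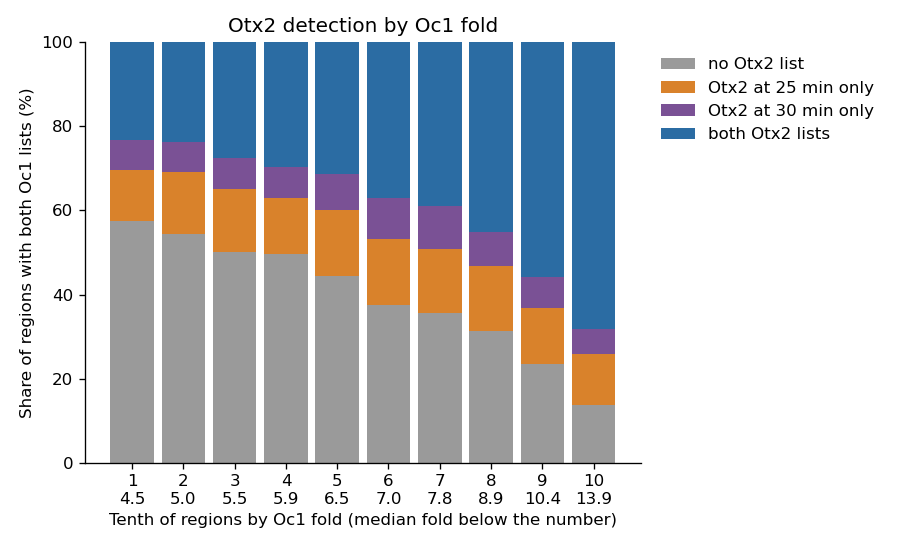
Regions with both Oc1 lists in 10 equal classes of rising Oc1 fold (horizontal axis, median fold under each number), with the share of each Otx2 class in percent. Both Otx2 lists rise from 23.3% to 68.2% and no Otx2 list falls from 57.5% to 13.7%, while the 2 classes of members together stay between 18.05% and 25.5%.

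Otx2 and Oc1 summits lay close together in the members. The median distance between the summits of the same time was 65 bases at 25 min (quartiles 31 and 116) and 59.5 bases at 30 min (27 and 100.5). Between the Oc1 summits of both times, the median was 54 and 49 bases in the same members. The summits of both factors lay within 100 bases in 68.4% of members at 25 min (65.2 to 71.4%), against 68.0% over all regions with both Oc1 lists and Otx2 at that time. At 30 min the share was 74.9% (70.8 to 78.6%), against 68.1%. Summits over 300 bases apart were found in 29 of 864 and 11 of 474 members. The members' Otx2 peaks at 25 min thus lay as near to the Oc1 summit as those of regions with both Otx2 lists, where the median was also 65 bases.

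**Figure D5:**
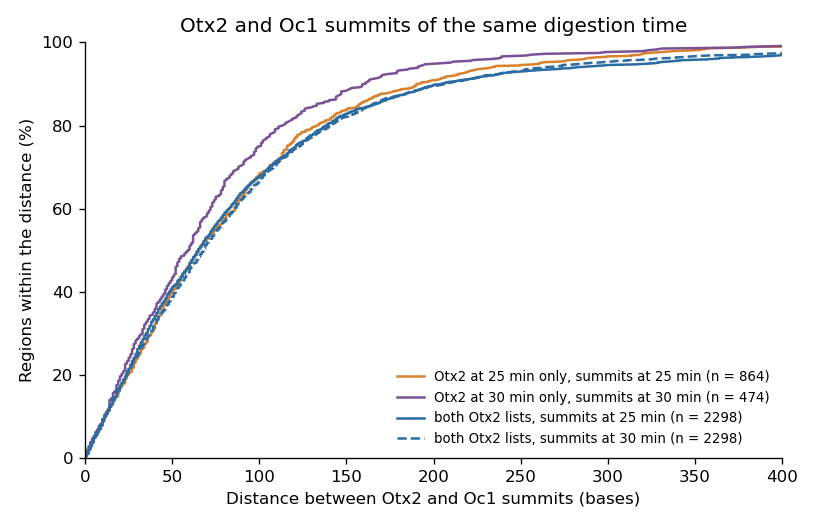
Cumulative share of regions (percent) by the distance in bases between Otx2 and Oc1 summits of the same digestion time. The curve of members with Otx2 at 25 min runs along those of regions with both Otx2 lists, and members with Otx2 at 30 min reach 74.9% at 100 bases.

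The width of a region depends in part on how many peaks were joined in it. The median width of the members was 452 bases, against 393 bases without Otx2 and 564 bases with both Otx2 lists. Exactly 3 peaks, 1 from each list, made up 1287 of the 1338 members (96.2%). The Otx2 peak covered a median of 51.1% of the region at 25 min and 35.7% at 30 min. It lay wholly inside the Oc1 peak of the same time in 47.2% of members at 25 min and 75.5% at 30 min, against 29.7% and 55.4% of regions with both Otx2 lists. Otx2 peaks at 30 min were the narrower ones, with a median of 154 bases in the members against 228 bases at 25 min. Read extension is not given in the sources. It was taken as the width of the narrowest peak of each list, 107 bases at 30 min and 157 bases at 25 min. At 30 min the Otx2 peak thus lay within the Oc1 peak in most regions of both classes.

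The overlap rule had members close to its limit. The shortest overlaps between an Otx2 and an Oc1 peak were 16 bases on chromosome 9, from 20595842 to 20596617, and 20 bases on chromosome 3, from 87841874 to 87842395. Their Otx2 folds at 25 min were 5.02 and 4.78, beside Oc1 folds of 4.21 and 5.56 at that time. Just outside, the regions with both Oc1 lists and the nearest Otx2 peak had gaps of 16 bases on chromosome 14, from 3226157 to 3226660, and 23 bases on chromosome 21, from 723784 to 724065. Such cases were rare, since the median overlap was 184 bases. A nearby Otx2 peak at the time without one was also rare. It lay within 500 bases of 26 members with Otx2 at 25 min (3.01%) and of 20 with Otx2 at 30 min (4.22%). Among regions without Otx2 the shares for the same missing times, 30 and 25 min, were 1.46% and 2.71%. Close neighbours were thus few in both classes, with the higher shares in the members.

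Members were spread over the chromosomes. On the 19 chromosomes with at least 100 regions of both Oc1 lists, members made up between 17.2% (chromosome 4) and 31.3% (chromosome 13) of these regions. The Wilson interval held the overall 22.2% on 17 of them. On chromosome Z the members numbered 70 of 318 (22.0%), and on chromosome 1 they numbered 200 of 869 (23.0%).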

How the data were processed

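Peak lists of 4 CUT&RUN libraries were analysed, deposited by the authors as 1 list per library without a header. Per the submitters' processing notes, Bowtie2, SAMtools, deepTools and MACS2 were used with the build galGal5. Their roles, versions and settings, the control and the handling of duplicates are not given in the sources used here. The deposited columns hold the fold at the summit (a ratio), −log10 of p and of q, the summit offset, and a score, which for 100% of the peaks is the whole part of 10 times −log10 q. Coordinates are those of the lists, counted from 1.

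The lists hold 11495 (Otx2, 25 min), 9044 (Otx2, 30 min), 9777 (Oc1, 25 min) and 10664 peaks (Oc1, 30 min). Depth is not listed. Summit reads and background were recovered from fold and p, with a pseudocount of 1 and a Poisson model, for 100% of peaks to within 0.002 in −log10 p. The smallest read number that gave no background below the genome-wide one was taken. Pile-ups were scaled by 0.845 for Otx2 at 30 min and by 1 otherwise. Named regions give reads before scaling. The genome-wide background is the commonest one, and the median number of reads was 6 to 8. The steps were checked on simulated lists.

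In a region with several peaks of 1 list, the one with the highest fold was used. Shares carry Wilson 95% intervals and medians binomial order-statistic intervals. The regions named are, per Otx2 time, the 3 with the highest Otx2 −log10 q, the 3 with the highest smaller Oc1 −log10 q, the 3 highest and 3 lowest ratios with all −log10 q of at least 5, and those nearest the overlap limit. The members and measures were chosen with earlier results of these data known. Genes, motifs and sequences at the regions were not analysed here. The alternatives tried were a stricter q, reciprocal overlap, direct overlap with both Oc1 peaks, lists of equal length, a minimum of reads, another choice of peak and of Oc1 value and, added after seeing the data, read ratios and the removal of raised background, whose level of 2 times was also set then. Python 3.11.15, pandas 2.3.3, scipy 1.17.1 and statsmodels 0.14.6 were used.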

Additional observations from a re-analysis of the deposited data

Results flagged for a closer look

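The Oc1 fold moved in opposite directions between the digestion times in the 2 kinds of member. Its median log2 change from 25 to 30 min was -0.084 in regions with Otx2 at 25 min only and 0.17 in regions with Otx2 at 30 min only. The Oc1 folds were not used to tell these kinds apart, but this does not make them independent of Otx2 detection. In some named regions, the Otx2 and Oc1 peaks of the same time had nearly equal backgrounds, relative to the genome-wide one. On chromosome 2, from 119827508 to 119828234, both were 1.49 times at 25 min. On chromosome 1, from 40356830 to 40357391, they were 3.39 (Otx2) and 2.75 times (Oc1) at 25 min. Each of these is the commonest raised level of its own list, so they are not read as a difference. In other named regions the backgrounds differed. On chromosome 1, from 22696008 to 22696645, they were 1.07 (Otx2) and 2.75 times (Oc1) at 25 min. On chromosome 10, from 5620274 to 5620775, they were 1.99 (Otx2) and 4.96 times (Oc1) at 30 min. Whether the peaks share a background was not tested. The difference in Oc1 fold was not tested either, since each antibody and time has 1 library. At 25 and 30 min, the background at the Oc1 peak was raised in 29.9% and 35.8% of regions with Otx2 at 25 min only. In regions with Otx2 at 30 min only, it was raised in 59.9% and 13.1%. The part of the background in the difference in Oc1 fold was not tested.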

How the results depend on the processing

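Of 60 values under alternatives, 40 stayed within 1.5 times (counts) or within the interval of the value reported, 19 moved and 1 changed sign. With a −log10 q of at least 5 there were 827 members, 456 of them at 25 min. Of the 1338 members 28.4% were kept, the share with the Otx2 fold below both Oc1 folds was 59.4% and the median Oc1 fold 8.86. When each peak had to cover 50% of the other, there were 1309 members, and 463 of them (34.6% of the 1338) were kept from before. This rule only removed Otx2 peaks, so the other members came from regions with both Otx2 lists. The median log2 ratio was then -0.26 at 25 min and changed sign to 0.052 at 30 min (95% interval -0.07 to 0.13), the share below both was 41.0%, the summit distance 57 bases and the Oc1 fold 7.12. The cause was not tested. The median Oc1 fold was 7.17 in lists cut to the shortest length and 7.58 with at least 6 reads, which left 513 members at 25 min. Cut to the shortest length, the lists gave 589 members at 25 min and 551 at 30 min. An Otx2 peak that itself overlapped both Oc1 peaks was found in 1370 members, which took in 97.5% of the 1338. Against the geometric mean of both Oc1 folds the ratios were -0.32 and -0.28. Another 2 alternatives were chosen after seeing the data. With reads as counted in calling the ratio was -0.43 at 25 min and -0.74 at 30 min. Only Otx2 reads at 30 min are scaled down in this count, and regions with both Otx2 lists stood at -0.51 at that time. Without raised Oc1 background there were 599 members (425 and 174), the ratio at 30 min was -0.31 and the share below both was 58.9%. No paired analysis was possible because each antibody and time has 1 library. The list of members thus depends strongly on the threshold and on the overlap, and few reads per peak limit what a missing Otx2 peak shows.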

Other observations

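The mirror case is given by number only, without its share among all regions with both Otx2 lists. Both Otx2 lists and exactly 1 Oc1 list were found in 1101 regions, with the Oc1 peak at 25 min in 514 (46.7%, 43.8 to 49.6%) and at 30 min in 587. There the background at the Otx2 peaks was at least 2 times the genome-wide one in 21.0% at 25 min and 23.2% at 30 min where Oc1 was found at 25 min only. Where Oc1 was found at 30 min only, it was raised in 40.03% at 25 min and in 5.79% at 30 min. In regions with both Otx2 lists and both Oc1 lists, it was raised in 39.7% at 25 min and in 18.5% at 30 min. Beside these regions, the share with Oc1 at 30 min only was alike at 25 min and lower at 30 min. The share with Oc1 at 25 min only was lower at 25 min and higher at 30 min. These differences were not tested.

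The surroundings of the members were also described. A region with all 4 lists lay within 10 kb of 15.3% of members with Otx2 at 25 min (13.0 to 17.8%) and of 18.6% with Otx2 at 30 min (15.3 to 22.3%). The share was 11.4% (10.2 to 12.8%) for Oc1 regions without Otx2. For regions with all 4 lists, another such region lay within 10 kb of 26.3% (24.5 to 28.1%). The members lay between these classes, as they did in Oc1 fold, and these shares were not tested.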
